A study of Xenopus tropicalis with 3 samples.

Results

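Cytosolic ribosomal protein genes encode the proteins that, with ribosomal RNA, build the small and large subunits of the ribosome outside mitochondria. They were chosen by a symbol rule, with earlier results of these data known. The rule took protein-coding genes on chromosomes 1 to 10 of the UCB_Xtro_10.0 RefSeq gene table. It kept those whose symbol starts with rpl or rps, with an optional a or p, an optional number and an optional letter. This gave 76 genes of 21749 protein-coding genes, 46 of the large subunit and 30 of the small subunit. The study profiled the urostyle, the rod-shaped bone that forms at the rear of the frog trunk during metamorphosis, in Xenopus tropicalis tadpoles at stage 56, stage 61 and stage 65, with 1 ATAC-seq library per stage. ATAC-seq uses a transposase to cut and tag accessible DNA. The values below come from the stage 65 library, in which tissue from anaesthetised tadpoles was dissected on ice and crushed with a pestle before the Omni-ATAC procedure. The labels name no strain, sex, treatment or number of animals, and the homogenised tissue mixes all its cell types. The series' text also names laser capture, which the sample labels do not. The peak lists of stage 56 and stage 61 use other chromosome names and were not placed on genes, so no stage is compared with another.

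Ribosomal proteins are made in nearly equal amounts and in very large quantity in growing cells. In vertebrates their genes are short, are transcribed from focused start sites and give mRNAs that begin with a pyrimidine tract, through which nutrient signalling by mTOR controls their translation. Introns of many of these genes hold genes of small nucleolar RNAs (snoRNAs), which guide chemical modification of ribosomal RNA.

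The stage 65 list held 311625 peaks with a median width of 569 bp. The authors' peak caller gave each peak a fold, the ratio of the summit pileup to background with a pseudocount of 1 added to both. Folds were whole multiples of 0.150, within 0.01 of a whole number in 100% of peaks with a fold below 100. With the pseudocount, this step gives a background pileup of 5.68, and each fold divided by the step, less 1, is the count of reads or fragments at the summit. The median summit pileup over all peaks was 21. Intervals below are exact 95% intervals, Poisson for a pileup, a fold or a count of summits and Clopper-Pearson for a share. Those of a pileup or a fold cover counting error only. Those of a share or a count of summits take genes or their ends as independent draws, although neighbouring genes can share a peak. They hold no spread between libraries. With 1 library no difference could be set against replicate spread, and no test was made. Of 16 measured marker genes of urostyle tissues and their neighbours, 14 had a gene-end peak, and acan of cartilage and tp63 of epidermis had none. The highest folds were those of the blood genes epor (45.5) and gata1 (43.0). Folds were 22.2 and 12.9 at myod1 and mylpf of muscle, 3.74 to 13.0 at the 3 measured bone genes, 20.7 at sox9 but 2.84 at col2a1 and 3.44 at matn1 of cartilage, and 2.40 to 3.44 at the genes of notochord and epidermis with a peak. Such a peak does not identify a tissue, since most genes had one.

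Nearly all ribosomal protein genes carried a peak at a gene end. A peak overlapped the window of 1 kb to each side of an end in 69 of 76 genes (90.8%, 81.9 to 96.2), while the share over all protein-coding genes was 85.7%, a value inside the members' interval. Peaks at both ends were found in 28 members (36.8%, 26.1 to 48.7), against 45.2% of all protein-coding genes, a value inside that interval. In 41 members (53.9%, 42.1 to 65.5) a peak stood at 1 end only, against 40.5% of all genes, a value below that interval. The members were short, with spans from 3430 to 10839 bp and a median of 5814.5 bp. Among the 5605 protein-coding genes within that range of spans, 85.6% had a gene-end peak, 46.3% had peaks at both ends and 39.3% at 1 end only. Among genes under 5 kb, 20 of 23 members (87.0%) were occupied, against 78.4% of all 4016 genes of that class. Between 5 and 8 kb the values were 40 of 44 (90.9%) against 85.8%, and all 9 longer members were occupied, against 87.2% of genes from 8 kb up to the longest member. The gene table holds no strand, so an end may be a start or a finish.

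Counting by summit, the highest point of a peak, gave a wider gap between members and other genes. A summit lay within 1 kb of an end in 67 of 76 members (88.2%, 78.7 to 94.4), whereas the share over all protein-coding genes was 75.4%. The interval of the members lay above that value, and also above the 75.2% of genes within their range of spans. Since it takes genes as independent draws within 1 library, this is a description and not a test. Summits within 1 kb of both ends were found in 15 members (19.7%, 11.5 to 30.5), against 26.1% of all genes, a value inside the interval. Only 2 occupied members, rpl19 and rps10, were reached by a peak without having a summit in either window, while this held for 2230 of the 18639 occupied protein-coding genes. The nearest summit lay within 500 bp of an end in 50 members (65.8%, 54.0 to 76.3), against 52.6% of all genes. The median distance from an end to the nearest summit was 334.5 bp in members (quartiles 175 and 642 bp) and 462 bp in all protein-coding genes (200 and 986 bp).

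**Figure D1:**
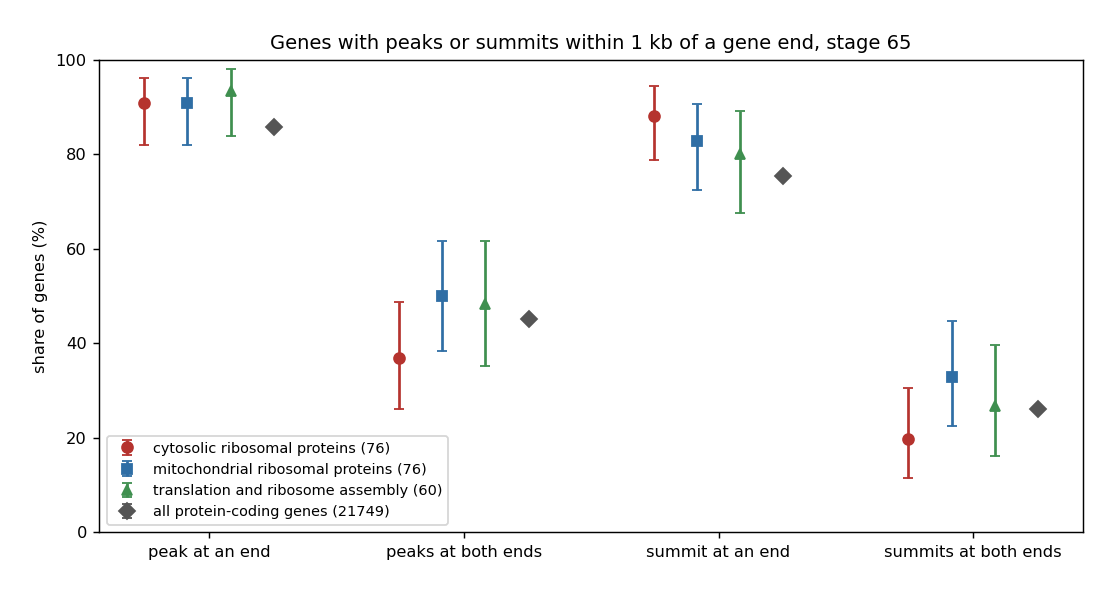
Share of genes in percent with a peak or a summit within 1 kb of at least 1 gene end or of both ends, for 76 cytosolic ribosomal protein genes, 76 mitochondrial ribosomal protein genes, 60 translation and ribosome assembly genes and all 21749 protein-coding genes. Bars are exact 95% binomial intervals. The cytosolic genes stand at 88.2% for a summit at an end and at 36.8% for peaks at both ends, against 75.4% and 45.2% of all genes.

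The summits of the members gathered just inside the gene. The first 250 bp inside held 23 summits, or 15.1 per 100 ends of members (9.59 to 22.7). The same stretch held 9.92 per 100 ends over all protein-coding genes, a value inside the interval of the members. On the outer side, the first 250 bp held 9 summits at members, or 5.92 per 100 ends, and 6.33 per 100 ends over all genes. From 1 to 5 kb outside the gene, the mean per 250 bp was 6.0 per 100 ends at members and 6.45 over all genes. Of the 50 members whose nearest summit lay within 500 bp, 33 (66.0%) had it inside the gene, against 61.0% of all such genes. At the 67 members with a summit within 1 kb, the nearest one had a median fold of 3.59 (quartiles 2.99 and 4.27), the same median as over all genes with such a summit. The peak under that summit had a median width of 582 bp at members and 663 bp over all genes.

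**Figure D2:**
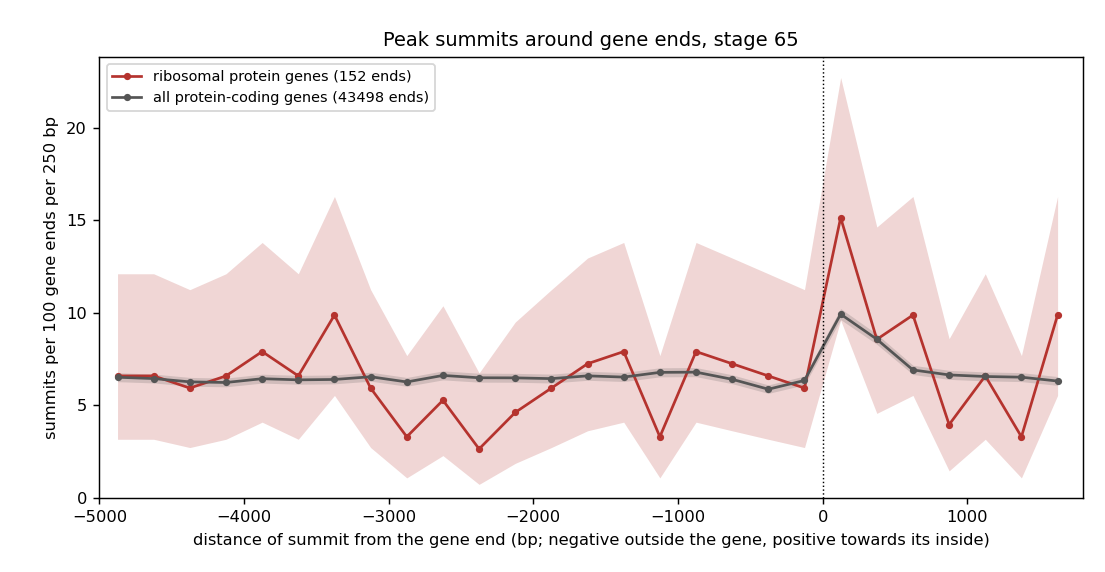
Peak summits per 100 gene ends in bins of 250 bp, against distance from the gene end in bp, negative outside the gene and positive towards its inside, for the 152 ends of ribosomal protein genes and the 43498 ends of all protein-coding genes. Shaded bands are exact 95% Poisson intervals. The bin just inside the end reaches 15.1 at ribosomal protein genes and 9.92 over all genes.

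Median height and width of the peaks at ribosomal protein genes lay below those over all genes, by less than their intervals. The best gene-end peak, the one with the highest fold, had a median fold of 4.04 (quartiles 3.14 and 5.39) in the 69 occupied members, against 4.34 (3.44 and 6.29) over all occupied protein-coding genes. The interval of the members' median, 3.59 to 4.64, holds that value. These medians differ by 2 steps of the fold scale, that is by 2 reads or fragments at the summit. The median width of the best peak was 755 bp in members (617 to 1005) and 935 bp over all genes. The median distance from its summit to an end was 509 bp in members (325 to 665) and 655 bp over all genes. Both values over all genes lie inside the members' intervals, which come from the order of values over genes. By fold, 13 members lay below 3, 18 from 3 to below 4, 23 from 4 to below 6, 4 from 6 to below 8 and 11 at 8 or more. The fold interval of 49 of the 69 members held the overall median of 4.34, that of 15 lay above it and that of 5 below it. The class at 8 or more held 14.5% of the 76 members (7.45 to 24.4) and 15.9% of all protein-coding genes. Large subunit genes were occupied in 43 of 46 cases with a median fold of 4.19, and small subunit genes in 26 of 30 with a median fold of 4.04.

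**Figure D3:**
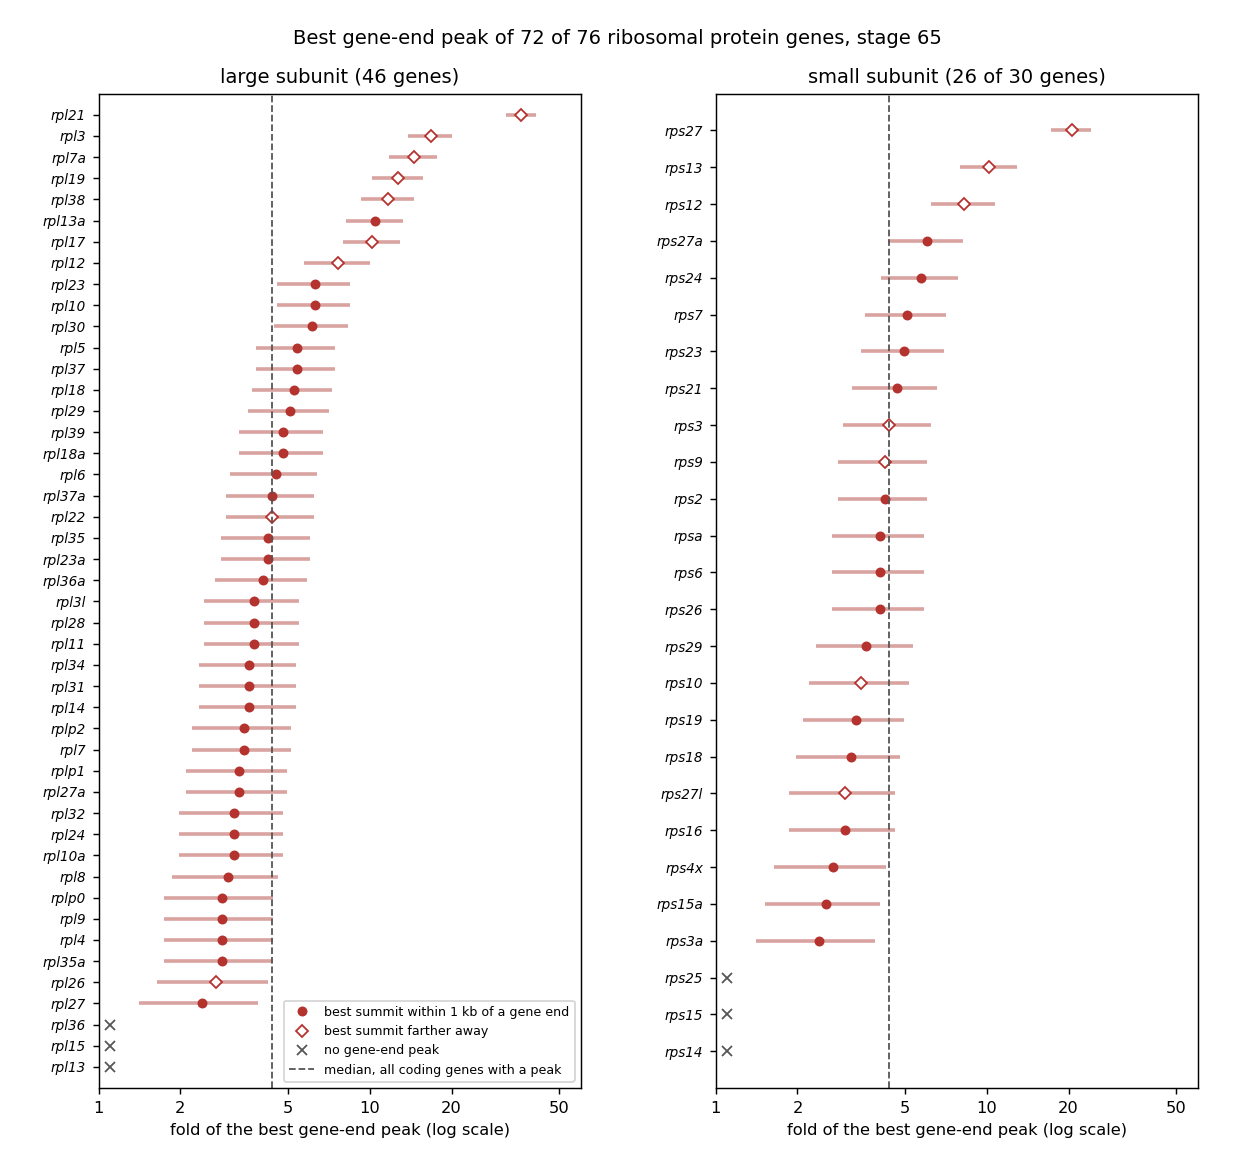
Fold of the best gene-end peak (log scale) of 72 ribosomal protein genes of the large and the small subunit, with exact 95% Poisson intervals as bars. Filled circles have their summit within 1 kb of a gene end, open diamonds farther away, and crosses mark 6 genes with no gene-end peak. The dashed line is the median of all occupied protein-coding genes, 4.34, which lies within most of the intervals.

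The small subunit reads the mRNA. On its mRNA entry and decoding side, rps2 had a fold of 4.19 (2.81 to 6.03), rps3, part of the entry channel, 4.34 (2.94 to 6.21), and rps23, which bears on decoding fidelity, 4.94 (3.43 to 6.91). These 3 intervals overlap one another. The rps23 peak was narrow, at 337 bp, with its summit 137 bp inside the gene. On the mRNA exit side, rps26 had a fold of 4.04, while rps14 had no gene-end peak. The gene of the S6 kinase target, rps6, had summits near both ends, and its best peak had a fold of 4.04 (2.69 to 5.85), a width of 908 bp and its summit 205 bp inside the gene. The gene rpsa, whose protein also serves as a laminin receptor, had the narrowest best peak of all members, 282 bp wide at 115357516 to 115357797 on chromosome 4, with a fold of 4.04 and its summit 16 bp outside the gene. The ubiquitin fusion gene rps27a had a fold of 5.99 (4.30 to 8.13), and its summit lay 509 bp inside the gene.

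Of the 69 best peaks, 13 had a fold below 3. At rpl27 and rps3a the fold was 2.40, a pileup of 15 (fold interval 1.41 to 3.85), followed by 2.55 at rps15a and 2.69 at rpl26 and rps4x. Below a fold of 3 lay also, among others, rpl4, rpl35a, rplp0 and rpl9, all at 2.84, and rpl8, rps16 and rps27l, all at 2.99. Peaks of this class were 290 to 738 bp wide. Their intervals overlap those of most members, so the order among them is not resolved at this depth.

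The large subunit forms peptide bonds. Around its peptidyl transferase centre, rpl3 had a fold of 16.8, the late-joining rpl10 one of 6.29 (4.55 to 8.48) and rpl8 one of 2.99 (1.86 to 4.59). The intervals of rpl3 and rpl10 do not overlap, nor do those of rpl3 and rpl8. That rpl3 summit was 1299 bp outside the gene, however, and the nearest one, 203 bp inside, had a fold of 2.84. At rpl10, which lies at 29035 to 33442 on chromosome 8, near its end, peaks covered 61.7% of the gene with 10 kb added to each side. The 3 genes of the P stalk, which recruits translation factors, were rplp0, rplp1 and rplp2. Their folds were 2.84 (1.75 to 4.41), 3.29 (2.10 to 4.96) and 3.44 (2.21 to 5.14). Each interval holds the median of 4.34 over all occupied protein-coding genes. At the stalk base, rpl12 had a fold of 7.64 (5.71 to 10.02). The interval of rpl12 lies above those of the 3 stalk genes, but that summit was 1181 bp outside the gene, and the nearest one, 206 bp inside, had a fold of 3.89. The gene of the L1 stalk, rpl10a, had a fold of 3.14.

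Proteins rpl5 and rpl11 form the 5S ribonucleoprotein, which also binds the p53 regulator MDM2 when ribosome assembly fails. The rpl5 peak had a fold of 5.39 (3.80 to 7.44), was 519 bp wide and had its summit 74 bp outside the gene. The best rpl11 peak had a fold of 3.74 (2.45 to 5.50), and its summit lay 799 bp outside rpl11 and 56 bp from an end of eloa, a neighbouring gene. A nearer rpl11 summit with a fold of 3.14 lay 216 bp inside the gene. Along the exit tunnel, through which the new chain leaves, rpl39 had a fold of 4.79, rpl4 one of 2.84 and rpl17 one of 10.2. That rpl17 summit was 1679 bp outside the gene, and the nearest one, 674 bp inside, had a fold of 2.40. All 3 genes had peaks at both ends, as did 45.2% of all protein-coding genes. At the rim of the tunnel, all 6 listed genes were occupied, against 85.7% of all protein-coding genes. Folds at the rim ran from 2.69 at rpl26 to 12.7 at rpl19, whose summit was 2534 bp outside the gene. There rpl35 and rpl23a had their summits 20 and 21 bp inside the gene, both with a fold of 4.19 (2.81 to 6.03). Among all members, rpsa alone had a summit closer to an end.

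Of 15 listed members mutated in human Diamond-Blackfan anaemia, a red cell failure caused by lack of a ribosomal protein, 14 were occupied, with a median fold of 3.59. The list may not hold every such gene. The first such gene found in patients, rps19, had a fold of 3.29 (2.10 to 4.96), with its summit 183 bp inside the gene. Folds were 5.69 at rps24, 5.09 at rps7, 3.44 at rps10, 2.84 at rpl35a and 2.40 at rpl27, and rpl15 had no gene-end peak. The highest of the group was rps27, at 20.5, with that summit 1984 bp outside the gene. Of the 61 members not on that list, 55 were occupied, with a median fold of 4.19. The share of occupied genes over all protein-coding genes was 85.7%.

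A set of 11 members had a best fold of 8 or more, and in most of them that peak stood apart from the gene. Going down, folds among them were 36.1 at rpl21, 20.5 at rps27, 16.8 at rpl3, 14.5 at rpl7a, 12.7 at rpl19, 11.7 at rpl38, 10.5 at rpl13a, 10.2 at rpl17 and rps13, and 8.23 at rps12. The summit lay outside the gene in 10 of 11, the exception being rps12, and more than 1 kb from either end in 10 of 11, the exception being rpl13a. Over all 3450 protein-coding genes with such a fold, 59.9% had the summit outside the gene and 76.3% had it beyond 1 kb. Peaks at both ends were found in 10 of the 11 members, against 80.4% of those 3450 genes.

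The strongest peak, at rpl21, lay at 155519312 to 155522211 on chromosome 2, with a summit pileup of 240 (fold interval 31.7 to 40.9). Its summit was 3063 bp outside rpl21 and 2687 bp from an end of mtif3, a mitochondrial initiation factor gene, so it lay nearer to the neighbour. The widest, at rps27, spanned 9624 bp of chromosome 8 from 143539861 to 143549484, and peaks covered 91.6% of the gene. Other wide peaks were 5028 bp at rpl19, 4496 bp at rpl13a and 3830 bp at rpl7a. On chromosome 10, peaks covered 88.1% of rpl13a with 10 kb flanks, against a median of 16.9% over all members. Like rpl10, rpl13a lies near a chromosome end, at 52347280 to 52352717, where the last gene of chromosome 10 ends at 52412270. That chromosome held 4 of the 11 genes, among 7 members. At rpl38, whose loss in mice alters the axial skeleton and the translation of Hox mRNAs, the peak at 32741124 to 32743760 had a pileup of 77 (fold interval 9.25 to 14.6) and its summit 1131 bp outside the gene.

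Beside these strong peaks, the same genes carried ordinary ones close to an end. A summit within 1 kb of an end was present in 10 of the 11, all but rpl19, where the nearest was 1029 bp away. Over all 3450 protein-coding genes with a best fold of 8 or more, 74.6% had such a summit. At rpl21 the nearest summit was 368 bp inside the gene with a fold of 3.44, at rps27 125 bp inside with 3.29, at rpl3 203 bp inside with 2.84 and at rpl38 108 bp inside with 3.44. These values lie in the range of the other members. At rps12 the nearest summit, 36 bp inside, had a fold of 5.54.

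**Figure D4:**
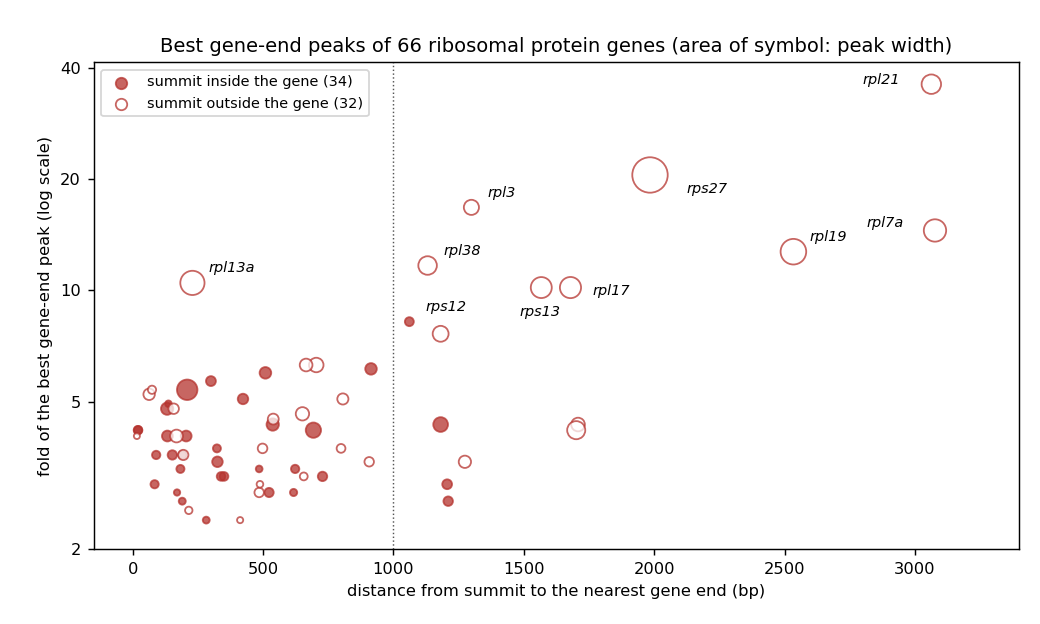
Fold of the best gene-end peak (log scale) against the distance in bp from its summit to the nearest gene end, for 66 ribosomal protein genes. Filled symbols have the summit inside the gene and open ones outside, the area of a symbol follows peak width, and the dotted line marks 1 kb. The 10 genes shown with a fold of 8 or more are named, and 9 of them lie right of the line.

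Some gene-end peaks belonged as much to a neighbour. In 9 of 69 occupied members (13.0%) the best summit lay nearer to an end of another protein-coding gene than to an end of the ribosomal protein gene, against 8.69% of all occupied genes. Beside rpl11, rpl21 and rpl7a these were rpl6, with its summit 154 bp from an end of ptpn11, rpl29, rplp2, rps7, rps9 and rps18. An end of another gene within 2 kb was found at 24 members (31.6%) at 31.5% of protein-coding genes within the members' range of spans, and at 26.0% of all protein-coding genes. Where no such neighbour stood, 47 of 52 members were occupied (90.4%, 79.0 to 96.8). Over all protein-coding genes without such a neighbour the share was 84.6%, a value inside that interval.

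The 7 members without a gene-end peak included rpl13, rpl15 and rpl36 of the large subunit and rps14, rps15 and rps25 of the small subunit. In these 6 the nearest summit lay deeper inside the gene, at 1546 bp from an end in rps14 (fold 4.49), 1576 bp in rps15 (3.44), 1683 bp in rpl13 (2.99), 1890 bp in rps25 (2.69), 2284 bp in rpl15 (4.19) and 2421 bp in rpl36 (3.14). These folds lie in the range of the occupied members. The window edge fell close by for some, since a peak edge stood 1048 bp from an end at rps14 and 1224 bp at rps15, whereas the occupied members with the most distant edge were rps10 at 655 bp and rpl32 at 515 bp. With windows of 2.5 kb, 75 of 76 members were occupied, as were 95.2% of all genes.

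The 2 paralog pairs among the members differed in their best peaks. At rpl3, the copy used in most tissues, the fold was 16.8 (13.8 to 20.2), and at rpl3l, which in mammals replaces it in muscle, 3.74 (2.45 to 5.50), with summits 1299 and 498 bp outside the genes. At rps27 the fold was 20.5 (17.2 to 24.2), and at rps27l, a p53 target in mammals, 2.99 (1.86 to 4.59), with that summit 1206 bp inside the gene. In each pair the intervals do not overlap. Close to an end, however, rpl3 had a fold of 2.84 and rps27 one of 3.29. The labels do not say how reads matching several copies were treated. The gene rpl3l stands 3126 bp from rps2, whose peak had a fold of 4.19 and its summit 693 bp inside the gene.

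Ribosomal protein genes were rich in snoRNA genes. Of 342 annotated snoRNA genes on these chromosomes, 68 (19.9%) lay inside 25 of the 76 members (32.9%, 22.5 to 44.6), while 0.336% of all protein-coding genes held one. The most were found in rps7, with 7, and rpl4, with 6. The 25 host members had a median best fold of 5.39 (quartiles 4.19 and 9.21), against 3.59 (3.14 and 4.45) in the 51 members without a snoRNA gene, with 23 of 25 and 46 of 51 occupied. A best fold of 8 or more was found in 7 of the hosts and 4 of the others, against 15.9% of all protein-coding genes. That summit lay more than 1 kb from either end in 10 of these 11 genes. Folds close to an end were not compared between hosts and others. Peaks at both ends were found in 13 of the 25 hosts (52%) and in 15 of the 51 others (29.4%), against 45.2% of all protein-coding genes. Peaks covered a median of 30.3% of a host gene and 16.5% of a member without one, at median spans of 5926 and 5660 bp. Of the 48 host genes that are not ribosomal protein genes, 42 were occupied, 27 of them at both ends, with a median fold of 4.79. Of all coding genes without a snoRNA gene, 85.7% were occupied, with a median fold of 4.34. Genes are not replicates and the split was made after values were seen, so no test was made.

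Some of the snoRNA genes themselves lay under peaks. Of the 68 inside members, 22 (32.4%) lay under a peak, in 13 of the 25 hosts, against 133 of 274 elsewhere (48.5%). Only 184 of all 342 snoRNA genes lay inside a protein-coding gene. The 274 elsewhere therefore mix snoRNA genes inside and outside such genes, and the 2 shares are not of like genes. The share inside members is close to the median of 30.3% of a host gene that peaks covered. At rps7, 4 of the 7 lay under peaks with a fold of 5.09 at most. At rpl12, a peak over 2 of its 3 snoRNA genes had a fold of 9.28, above the 7.64 of its best gene-end peak.

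**Figure D5:**
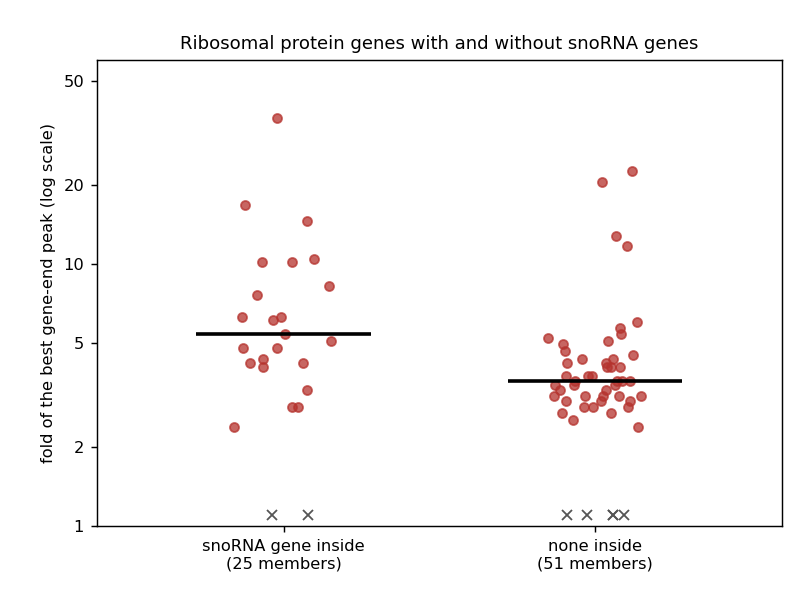
Fold of the best gene-end peak (log scale) of ribosomal protein genes with at least 1 annotated snoRNA gene inside (25) and with none inside (51). Points are genes, lines are medians over occupied genes (5.39 and 3.59), and crosses at the foot are genes without a gene-end peak, 2 of the hosts and 5 of the others. The clouds overlap.

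Related genes gave like occupancy, and the share over all protein-coding genes, 85.7%, lies inside the interval of each group. Of 76 mitochondrial ribosomal protein genes, which serve the separate ribosome of mitochondria, 69 were occupied, the same count as the cytosolic genes. Their peaks stood at both ends in 38 genes (50%), a summit lay within 1 kb in 63 (82.9%, 72.5 to 90.6), and the median best fold was 4.34. The highest were mrpl2 (29.5) and mrps2 (29.0), and 7, such as mrpl3, had no gene-end peak. Of 60 measured translation and ribosome assembly genes, 56 were occupied, 29 at both ends, and 48 had a summit within 1 kb (80.0%, 67.7 to 89.2). The highest folds were 29.3 at eif3j and 22.3 at eif3f, and pes1, nop58, eif3i and eif6 had no gene-end peak. The intervals of the 3 groups overlap, so they are not told apart by these counts. Over all protein-coding genes, 75.4% had a summit within 1 kb of an end and 45.2% had peaks at both ends. Both values lie inside the intervals of the mitochondrial group and of the translation group. Among genes that encode ribosomal proteins or partners under other names, the fold was 7.79 at fau, whose product carries the small subunit protein rps30, and 4.34 at rack1, a scaffold on the small subunit.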

How the data were processed

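Peaks of the stage 65 library were used as deposited. The submitters' processing notes list Bowtie2, Picard, MACS2 and Genrich and give no version or role. No header or label records the genome build, filters or peak-calling settings. The deposited list gives for each summit a fold (ratio), a −log10 p, a −log10 q, a score of 10 times the −log10 q (within 1 unit in 100% of peaks), and the summit offset. A Poisson tail with the background pileup of 5.68 matched the deposited −log10 p (median absolute difference 2.4e-06), so 1 background served all peaks. Ends of the last peaks lay 1.88 to 191 kb beyond the last gene of UCB_Xtro_10.0 on each of 10 chromosomes. Coordinates are printed 1-based.

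A peak was assigned to a gene end when at least 1 bp lay within 1 kb of it, in Python 3.11.15 with pandas 2.3.3 and scipy 1.17.1. The assignment was tested on simulated data. Members are set beside all protein-coding genes and those of like span. Members, gene lists and roles were chosen with earlier results of these data known. Genes are named when without a gene-end peak, highest or lowest in fold, widest or narrowest, closest to an end, paralogs, or known for disease or extra roles; others were named after their values were seen. Peaks at annotated starts and promoter letters, both planned, were not analysed here, since strand and sequence were not used here. Some genes are counted but not reported here one by one. Of 62 listed translation genes, 60 matched a symbol.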

Additional observations from a re-analysis of the deposited data

How the results depend on the processing

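Over 10 other settings, 37 of 48 values stayed within 1.5 times the count or within the 95% interval of the median. Counts of occupied members ran from 38 to 75. With peaks of a fold of 4 or more, 38 of 76 members were occupied (50%, all genes 50.6%), 4 at both ends, with a median fold of 5.32 and width of 1246 bp. In the stronger 50% of peaks 51 were occupied (67.1%, all genes 69.4%), 13 at both ends. Under these 2 settings the members' share of occupied genes lay below that of all genes, and under the other 7 above it. Both ends were occupied in 18 members with 500 bp windows, 15 by summit and 56 with 2.5 kb windows (73.7%, all genes 71.9%), the only setting in which that share exceeded all genes. The 2.5 kb windows gave a median summit distance of 1181 bp. Taking the peak with the nearest summit gave a width of 565 bp and a distance of 300.0 bp. By construction, the 2.5 kb windows add peaks to those counted. The fold limit, the stronger 50% of peaks, the 500 bp windows and the summit rule remove some. Taking the nearest summit changes only which peak is taken for a gene. Medians of width and summit distance lay below those of all genes in all 10 settings, though each members' interval held the value over all genes, and the median fold in 9, being equal with the nearest summit. The annotated start was not run, because strand was not used here. No paired analysis was possible because each stage has 1 library. The summit pileup limits folds: near the median of 4.04 the interval runs from 2.69 to 5.85.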
